A study of Mus musculus with 70 samples.

Results

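Glycosyltransferase and sulfotransferase genes, among them enzymes that act on the sugar chains of pituitary glycoprotein hormones, were followed across thyroid hormone states in the mouse pituitary. The members were every gene whose symbol begins with St3gal, St6gal, St6galnac, St8sia, B4galt, B4galnt, Chst, Mgat or Fut followed by a digit, each represented by its RefSeq transcript with the highest mean expression. The rule found 62 of the 22835 genes in the RNA-seq table: 20 sialyltransferases (6 St3gal, 2 St6gal, 6 St6galnac and 6 St8sia), 14 sulfotransferases, 9 fucosyltransferases including the pseudogene Fut4-ps1, 8 Mgat N-acetylglucosaminyltransferases, 7 B4galt galactosyltransferases and 4 B4galnt N-acetylgalactosaminyltransferases. The rule used names only and no measured value.

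The study asked how triiodothyronine (T3) and its receptor TRβ, the product of Thrb, control pituitary chromatin and gene expression. RNA-seq covered 4 groups of male C57BL/6J mice aged 2 to 4 months: hypothyroid wild type (n = 4 libraries), hyperthyroid wild type (n = 4), hypothyroid Thrb-KO (n = 5) and hyperthyroid Thrb-KO (n = 5), each library being a pool of 3 pituitaries. All 4 groups drank 0.05% methimazole and 1% potassium perchlorate for 4 to 5 weeks, and the hyperthyroid groups also received T3 at 0.5 µg/ml in the final 1 week, so no untreated pituitary entered the RNA comparison. Binding of TRβ came from untreated males that carried a biotin-tagged receptor (Thrb HAB allele) with the BirA ligase, against males with BirA alone, in pituitary (3 libraries each, 12 pituitaries per library) and cerebral cortex (3 each). T3-regulated open chromatin came from ATAC-seq of pituitary nuclei of hypothyroid (n = 4) and hyperthyroid (n = 4) males. They received the same methimazole, perchlorate and T3 treatments as the RNA groups. The nuclei were marked by Sun1-GFP through Thrb2-Cre. That driver follows the TRβ2 promoter, so these nuclei came from cells with present or past expression of Thrb2-Cre, whereas the RNA came from whole pituitary tissue.

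Thyroid-stimulating hormone (TSH), luteinizing hormone (LH) and follicle-stimulating hormone (FSH) share the α subunit Cga, and their subunits carry N-linked glycans. Mgat enzymes start the branches of these glycans, B4galt or B4galnt enzymes extend them with galactose or N-acetylgalactosamine, sialyltransferases or the sulfotransferases Chst8 and Chst9 cap them, and Fut8 adds fucose to the core. The capping by sulfate or sialic acid is known to set how fast pituitary glycoprotein hormones are cleared from blood. Other members act on glycolipids, on mucin-type chains, on proteoglycans or on the nerve-cell epitopes polysialic acid and HNK-1.

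Libraries held 21453548 to 55273749 reads, recovered as whole numbers from the steps of the CPM values (reads of a transcript scaled to a fixed library total). They fell into 2 sets that the groups shared. Lars2 was at 2571 to 3420 CPM in the 8 libraries numbered 1 and 2. In the 10 libraries numbered 3 to 5 it was at 53.2 to 95.1 CPM. Values within each set are therefore given beside most of the called changes of members. Thrb, the targeted gene, was at 257 ± 27.3 CPM in hypothyroid wild type, 104 ± 22.8 in hyperthyroid wild type, 271 ± 20.1 in hypothyroid Thrb-KO and 260 ± 32.0 in hyperthyroid Thrb-KO (mean ± SD), so this count over the whole transcript does not check the genotype labels. Hormone markers of the pituitary cell types (Gh, Prl, Pomc, Tshb, Lhb, Fshb) were present in every library. All 4 thyrotroph markers (Tshb, Cga, Trhr, Dio2) were lower in hyperthyroid than in hypothyroid mice of both genotypes, and their summed level was 9915 to 18710.3 CPM in hypothyroid and 1236 to 2114 CPM in hyperthyroid wild type, and 9358 to 11871 and 1632 to 1737 CPM in the Thrb-KO groups. Gh rose by 1.03 ± 0.21 (log2, SE) with T3 in wild type, and Prl rose by 1.70 ± 0.31 in wild type and by 1.63 ± 0.27 in Thrb-KO. In whole tissue, fewer cells of a type and less RNA per cell cannot be told apart.

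Of the 62 members, 46 exceeded 1 CPM in all 18 libraries and entered the limma fit of 13145 genes, 7 exceeded 1 CPM in at least 4 libraries only, and 9 in fewer. Those 9 were B4galnt2, Chst4, Chst5, Chst13, Fut4-ps1, Fut7, St6galnac1, St8sia1 and St8sia6, none of which reached 1 CPM in any library, and St6galnac1 had 9 reads over the 18 libraries together. Per kilobase of the longest annotated coding transcript, the highest mean level was that of B4galt6, a lactosylceramide synthase, at 23.2 CPM per kb. B4galt3 (20.2 CPM per kb), St8sia3 (20.1), the GM3 ganglioside synthase St3gal5 (19.5) and B4galt1 (15.6) followed, and the median of the 61 placed members was 4.00 CPM per kb. Among the genes fixed as enzymes of hormone N-glycans, St6gal1 stood at 15.2, Chst8 at 8.64 and B4galnt3 at 6.23 CPM per kb.

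In wild-type mice, T3 raised 3 of the 46 tested members and lowered none where a call required 1.5-fold or more and an adjusted p below 0.05 (limma, Benjamini-Hochberg adjustment over all 13145 genes). Over all tested genes 9.46% were called, 3.87% higher and 5.59% lower, so the share of members called (3 of 46) was not above the background. With edgeR on the recovered reads 718 genes were higher and 675 lower, against 509 and 735 here. The members that rose were Chst10, St8sia2 and Fut2. The median change of the 46 members was -0.05 (log2) and that of all genes -0.04. A further 4 members passed the adjusted p below 1.5-fold with higher levels (Chst1, St6gal1, St3gal2 and Fut8) and 6 with lower levels (Chst12, B4galt6, Fut4, St3gal6, B4galnt4 and St6galnac3). The lowest of these was -0.54, for Chst12. The 2 groups of wild-type libraries did not overlap for 10 of the 46 members, 6 higher and 4 lower, against 17.4% of all genes tested.

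**Figure D1:**
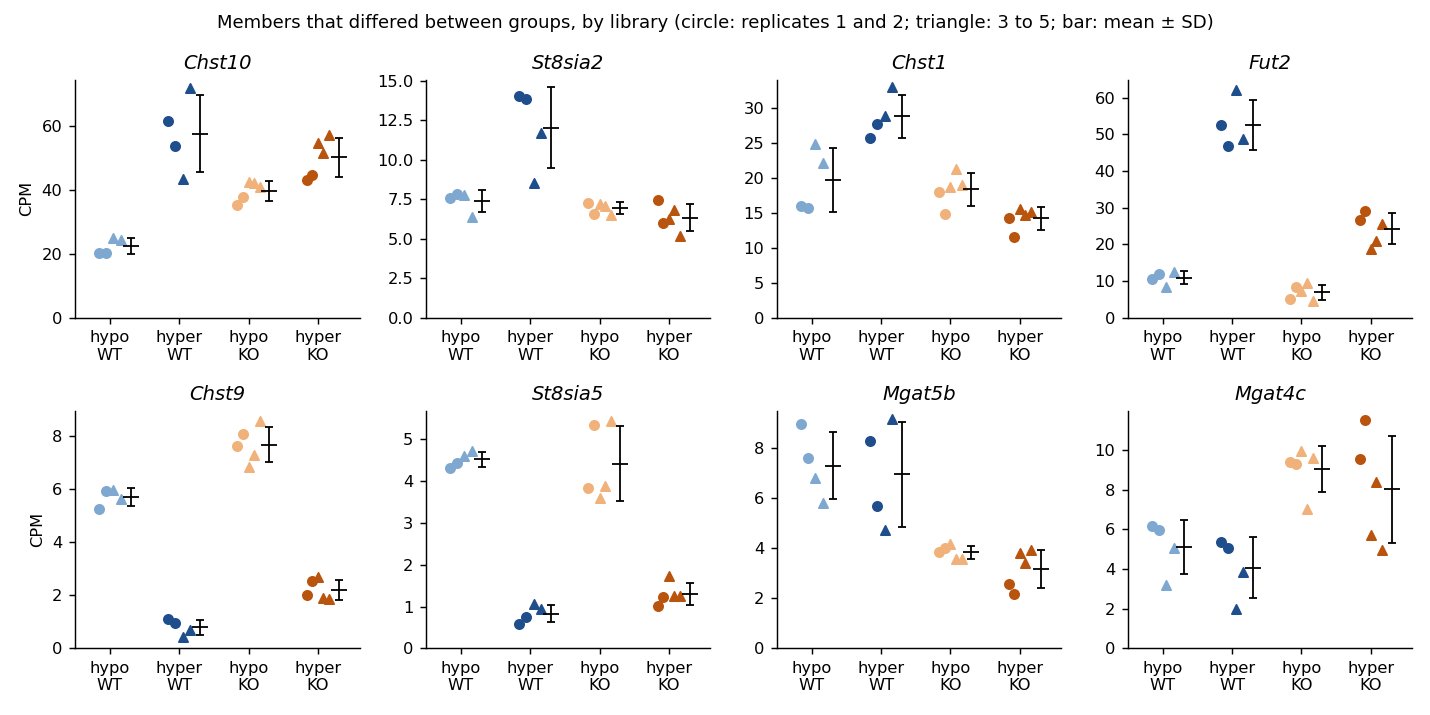
CPM of 8 members in each library by group (hypo, hypothyroid; hyper, hyperthyroid; WT, wild type; KO, Thrb-KO); circles are replicates 1 and 2, triangles replicates 3 to 5, and the bar is the mean ± SD of 4 or 5 libraries. Chst10 in hypothyroid Thrb-KO (35.3 to 42.5 CPM) lies above hypothyroid wild type (20.1 to 24.7 CPM), and Chst9 and St8sia5 are lower in every hyperthyroid library than in any hypothyroid library of the same genotype.

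Chst10 encodes the sulfotransferase that adds sulfate to glucuronic acid in the HNK-1 epitope of neural glycoproteins. Its levels were 20.1, 20.3, 24.7 and 24.4 CPM in hypothyroid wild type and 61.4, 53.7, 43.4 and 71.8 CPM in hyperthyroid wild type. In hypothyroid Thrb-KO they were 35.3, 37.6, 42.5, 42.1 and 40.9 CPM, and in hyperthyroid Thrb-KO 43.0, 44.7, 54.7, 51.6 and 57.0 CPM. Hypothyroid wild type was thus the low group, and each of the other 3 groups lay wholly above it. T3 raised Chst10 2.48-fold in wild type (log2 1.31 ± 0.13, adjusted p = 7.64e-07). In Thrb-KO the log2 change was 0.33 ± 0.12 (adjusted p = 0.278), which was not called, although the 5 hyperthyroid libraries lay above the 5 hypothyroid ones. The wild-type response exceeded the Thrb-KO response by 0.98 ± 0.18 (adjusted p = 0.00197). Without T3, Chst10 was 1.74-fold higher in Thrb-KO than in wild type (log2 0.80 ± 0.13, adjusted p = 0.00042), and with T3 the difference was -0.18 ± 0.13 (adjusted p = 0.414). The wild-type response was 1.46 within replicates 1 and 2 and 1.15 within replicates 3 to 5. The difference between responses was 1.20 and 0.78, the latter short of the threshold. The genotype difference without T3 was 0.82 and 0.74 within the sets, called in both.

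Chst10 was also the member with the highest read count under a TRβ peak. The gene lies on the minus strand at chr1:38920722-38955005 (mm9). A pituitary TRβ peak of 111 reads, against 3 in the BirA control, covered chr1:38939701-38940200 in an intron, 15048 bases from the nearest annotated start. The median over all 8051 pituitary peaks was 18 reads. A T3-regulated ATAC peak (adjusted p = 6.26e-07) covered chr1:38939547-38940002, and no cortex peak lay within 20 kb. Below is the 300-base stretch chr1:38939701-38940000 inside both peaks (plus strand, 5′ to 3′), shown because both assays mark it. Capitals mark both exact copies of the receptor half-site AGGTCA, which point the same way on the plus strand.

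Chst10 intron: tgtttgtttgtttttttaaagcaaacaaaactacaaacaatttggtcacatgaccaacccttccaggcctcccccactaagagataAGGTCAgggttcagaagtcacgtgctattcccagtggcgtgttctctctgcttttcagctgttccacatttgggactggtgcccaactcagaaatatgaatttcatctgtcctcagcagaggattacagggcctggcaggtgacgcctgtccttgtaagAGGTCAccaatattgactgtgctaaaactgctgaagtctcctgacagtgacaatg

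No DR4 was found in this peak. DR4 here means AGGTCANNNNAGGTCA, a direct repeat of the half-site with a spacer of 4, on either strand with at least 10 of its 12 fixed bases matching. Of the 346 pituitary peaks as wide as the whole TRβ peak (500 bases, longer than the stretch shown), 25.7% held one. At least 1 exact half-site on either strand was present in 47.1% of those peaks and at least 2 in 11.3%. A DR4 contains half-sites, so these shares overlap.

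St8sia2, a polysialyltransferase best known for building polysialic acid on the neural cell adhesion molecule, had levels of 7.56, 7.84, 7.78 and 6.38 CPM in hypothyroid and 14.0, 13.8, 8.52 and 11.7 CPM in hyperthyroid wild type. In hypothyroid Thrb-KO it was at 7.28, 6.58, 7.20, 7.07 and 6.49 CPM, and in hyperthyroid Thrb-KO at 7.42, 6.01, 6.22, 6.81 and 5.17 CPM. The 4 hyperthyroid wild-type libraries were above all 14 others, while the other 3 groups overlapped. T3 raised St8sia2 1.53-fold in wild type (log2 0.61 ± 0.13, adjusted p = 0.0018), and the change in Thrb-KO was -0.12 ± 0.12 (adjusted p = 1). The responses differed by 0.73 ± 0.17 (adjusted p = 0.0152). With T3, Thrb-KO was 1.76-fold lower than wild type (log2 -0.81 ± 0.12, adjusted p = 0.000155). The wild-type response sat close to the fold limit: it was 0.78 within replicates 1 and 2 but 0.45 within replicates 3 to 5, where it was not called, and it fell to 0.55 without hypothyroid wild type replicate 4, 0.54 without hyperthyroid wild type replicate 1 and 0.54 without hyperthyroid wild type replicate 2. The difference between responses was 0.82 and 0.62 within the sets, not called in the second.

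At St8sia2 (minus strand, chr7:81084005-81158568) a pituitary TRβ peak of 14 reads against 2 covered chr7:81151801-81152000, in an intron 6668 bases from the nearest annotated start. It lay inside a T3-regulated ATAC peak at chr7:81151710-81152253 (adjusted p = 5.59e-05). The 200 bases of the TRβ peak are given on the plus strand, with the fixed bases of the DR4 at chr7:81151925-81151940 in capitals. Of these 12 bases 10 matched, and 19.1% of the 1073 pituitary peaks of the same width held a DR4 by this definition.

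St8sia2 intron: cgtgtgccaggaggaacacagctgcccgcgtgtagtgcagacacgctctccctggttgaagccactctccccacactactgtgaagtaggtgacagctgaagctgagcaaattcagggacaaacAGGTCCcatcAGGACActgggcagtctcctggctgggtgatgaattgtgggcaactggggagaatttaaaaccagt

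Fut2, an α1,2-fucosyltransferase that makes the H antigen on secreted and epithelial glycoproteins, showed the largest rise among the tested members and rose in both genotypes. It was at 10.6, 12.0, 8.36 and 12.3 CPM in hypothyroid and 52.5, 46.9, 62.0 and 48.7 CPM in hyperthyroid wild type. In Thrb-KO it was at 5.06, 8.25, 7.11, 9.40 and 4.60 CPM without T3 and at 26.7, 29.1, 18.8, 20.8 and 25.6 CPM with T3. In both genotypes the lowest value with T3 exceeded the highest without it. The rise was 4.54-fold in wild type (log2 2.18 ± 0.19, adjusted p = 8.32e-08) and 3.25-fold in Thrb-KO (log2 1.70 ± 0.17, adjusted p = 3.92e-06). The difference between these responses, 0.48 ± 0.25 (adjusted p = 0.398), did not pass the test, which does not show that they were equal. Within replicates 1 and 2 the rise was 2.04 in wild type and 1.95 in Thrb-KO, and within replicates 3 to 5 it was 2.33 and 1.53, so the difference was 0.09 in one set and 0.79 in the other, neither called. With T3, Fut2 was 2.14-fold lower in Thrb-KO than in wild type (log2 -1.10 ± 0.18, adjusted p = 0.000301), and the difference was -0.81 and -1.31 within the sets. Without T3 the log2 difference was -0.61 ± 0.18 (adjusted p = 0.0421), and this call was lost with the replicate number as a block (-0.57, under the fold limit), within replicates 3 to 5 (-0.52), with no filter on low genes, with edgeR, with only the groups compared in the fit and on leaving out any one of 9 libraries, namely hypothyroid wild type replicates 1, 2 and 4, hyperthyroid wild type replicate 1, hypothyroid Thrb-KO replicates 1, 3 and 5 and hyperthyroid Thrb-KO replicates 4 and 5 (-0.63 to -0.50). A pituitary TRβ peak of 26 reads against 5 lay in an intron at chr7:52910901-52911250, with no T3-regulated ATAC peak within 20 kb and no DR4.

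In Thrb-KO mice Fut2 was the only one of the 46 members called with T3, and none was called lower. Over all genes 1.01% were called, 0.411% higher and 0.601% lower, so a count of 1 in 46 is near that share. The groups did not overlap for 4 members, 2 higher (Fut2 and Chst10) and 2 lower (St6galnac3 and St8sia4), against 5.58% of all genes.

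**Figure D2:**
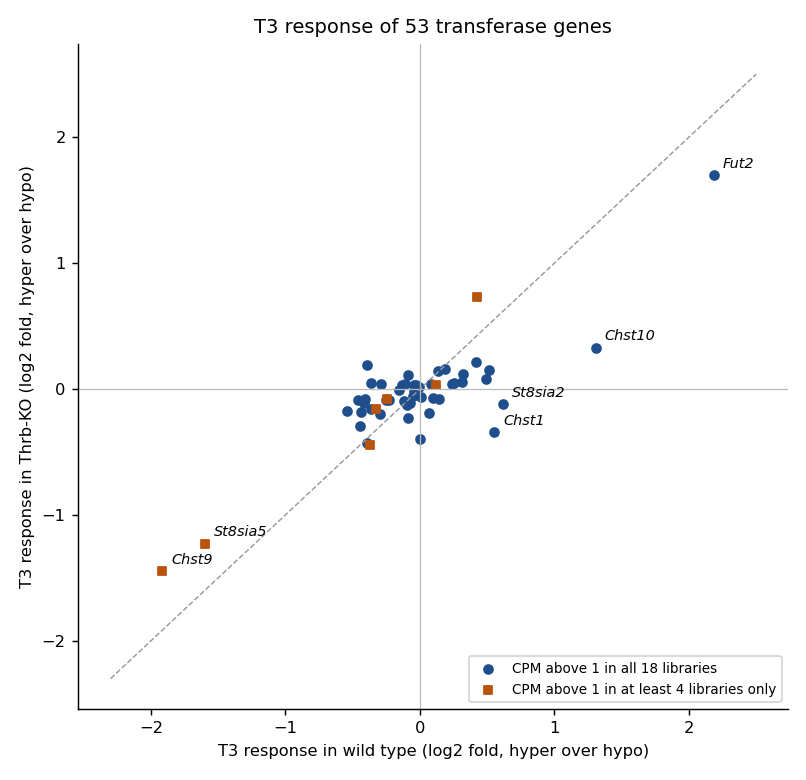
Log2 change with T3 in wild type (horizontal) against Thrb-KO (vertical) for the 46 members above 1 CPM in all libraries (circles) and 7 above it in at least 4 (squares); the dashed line marks equal change and the names are of members called in a T3 response or in the difference between responses. Chst10, St8sia2 and Chst1 lie below the line at the right, with differences of 0.98, 0.73 and 0.90, and Fut2, Chst9 and St8sia5 are called in both genotypes.

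The T3 responses of the genotypes differed for 3 of the 46 members, all with the higher response in wild type: Chst10, St8sia2 and Chst1. Over all genes 4.26% were called in this comparison, 1.78% with the higher and 2.48% with the lower response in wild type (234 and 326 genes, against 327 and 302 with edgeR). Chst1, a sulfotransferase acting on galactose in keratan sulfate, was at 15.9, 15.7, 24.7 and 22.1 CPM in hypothyroid and 25.6, 27.6, 28.7 and 32.9 CPM in hyperthyroid wild type. It was at 17.9, 14.8, 18.6, 21.2 and 19.0 CPM in hypothyroid and 14.2, 11.4, 15.6, 14.7 and 15.1 CPM in hyperthyroid Thrb-KO. Hyperthyroid wild type was therefore the high group, and the wild-type groups did not overlap. The change was 0.55 ± 0.14 in wild type (adjusted p = 0.00901, below 1.5-fold) and -0.35 ± 0.13 in Thrb-KO (adjusted p = 0.301), and they differed by 0.90 ± 0.19 (adjusted p = 0.00726). Within the library sets the difference was 1.05 and 0.73, called in both. The genotype difference with T3 was -0.97, and it was -1.01 and -0.98 within the sets, called in both. The wild-type change passed the fold limit on TMM-scaled CPM (0.61), with edgeR (0.61) and with DESeq2 (0.62). No pituitary TRβ or ATAC peak lay within 20 kb of Chst1, and 1 cortex TRβ peak covered its annotated start.

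Without T3, 1 member was higher in Thrb-KO than in wild type (Chst10) and 2 were lower (Mgat5b and Fut2), with 3.02% of all genes called, 1.01% higher and 2.01% lower. With T3, 1 was higher (Mgat4c) and 4 were lower (Chst1, St8sia2, Fut2 and Mgat5b), with 4.86% of all genes called, 2.54% higher and 2.32% lower (334 and 305 genes, against 289 and 504 with edgeR). The 5 members called with T3 made up a larger share of the 46 than that background, and the difference in share was not tested. The genotype groups did not overlap for 4 higher and 2 lower members without T3 (14.3% of all genes) and for 3 higher and 5 lower with T3 (11.3%). The comparisons with T3 share their hyperthyroid wild-type and Thrb-KO libraries with the T3 responses above. Csf1r, a macrophage marker, differed by -0.77 (log2) in hypothyroid Thrb-KO, the summed immune markers being 29.3 to 35.0 CPM there and 50.6 to 55.2 CPM in hypothyroid wild type. The other 2 immune markers, Cd68 (-0.46) and Ptprc (-0.50), were not called. Of the 4 thyrotroph markers Trhr (-1.35) and Dio2 (-0.63) were lower there and none was higher, and of the 3 stromal markers Col1a2 was lower (-0.64) while Col1a1 (-0.09) and Dcn (0.23) were not called. With T3, Dio2 (2.18) and Trhr (0.69) were higher in Thrb-KO, as was 1 of 4 gonadotroph markers, Nr5a1 (0.60), and Aldh1a2, 1 of 2 tested stem and folliculostellate markers, was lower (-0.59). The part of these shifts in the members' values was not tested.

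Mgat5b and Mgat4c differed by genotype and showed no called T3 response. Mgat5b, which branches O-mannosyl glycans, was at 8.96, 7.58, 6.80 and 5.80 CPM in hypothyroid and 8.25, 5.66, 4.70 and 9.14 CPM in hyperthyroid wild type. In Thrb-KO it was at 3.86, 3.99, 4.18, 3.55 and 3.58 CPM without T3 and at 2.55, 2.17, 3.79, 3.41 and 3.92 CPM with T3. Every Thrb-KO library lay below every wild-type library. The difference was -0.77 ± 0.17 without T3 (1.70-fold lower, adjusted p = 0.00712) and -0.91 ± 0.17 with T3 (1.88-fold lower, adjusted p = 0.000958). Within replicates 1 and 2 these were -0.91 and -1.23, and within replicates 3 to 5 -0.61 and -0.69, the hypothyroid one not called there. Pituitary TRβ peaks lay in an intron 212 bases from an annotated start (16 reads against 0) and 5527 bases upstream of the gene (18 against 1).

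Mgat4c, a member of the GnT-IV family of N-glycan branching enzymes, was at 6.16, 5.98, 3.19 and 5.08 CPM in hypothyroid and 5.35, 5.08, 1.99 and 3.87 CPM in hyperthyroid wild type. It was at 9.40, 9.33, 9.95, 7.03 and 9.59 CPM in hypothyroid and 9.56, 11.5, 5.74, 8.39 and 4.99 CPM in hyperthyroid Thrb-KO. The hypothyroid groups did not overlap, whereas the hyperthyroid groups did. With T3 the difference was 0.84 ± 0.23 (1.79-fold higher in Thrb-KO, adjusted p = 0.0239), and without T3 it was 0.74 ± 0.23 (adjusted p = 0.0672). With the replicate number as a block these were 0.90 and 0.80, both called (adjusted p = 0.00167 and 0.0056). Without the block, the hyperthyroid call was lost on leaving out hyperthyroid wild type replicate 3 (0.60) or hyperthyroid Thrb-KO replicate 1 (0.77), 2 (0.71) or 4 (0.81). Within the library sets the difference was 0.55 and 0.95 without T3 and 0.89 and 0.92 with T3. No peak of any list lay within 20 kb of the gene.

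The enzymes known to act on the N-glycans of pituitary hormones were taken as a list of 16 members. None of the 15 that entered the fit of 13145 genes was called in any of the 5 comparisons, and the remaining one, Chst9, was called in the wider fit described below. The shares of all genes called were 9.46%, 1.01%, 4.26%, 3.02% and 4.86%, so a count of 0 in 15 is close to what those shares give. Hormone subunits in the same libraries behaved differently from each other. Tshb was at 2902 to 6462 CPM in hypothyroid and 40.5 to 422 CPM in hyperthyroid wild type (log2 -4.95 ± 0.51, adjusted p = 9.4e-07) and Cga at 5973 to 11009.7 and 1153 to 1652 CPM (-2.55 ± 0.16, adjusted p = 2.64e-09). Both also fell in Thrb-KO, with log2 changes of -4.83 ± 0.46 for Tshb and -2.11 ± 0.15 for Cga. Lhb (0.22 ± 0.13) and Fshb (-0.18 ± 0.15) were not called in wild type (adjusted p = 0.29 and 0.52), nor in Thrb-KO.

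**Figure D3:**
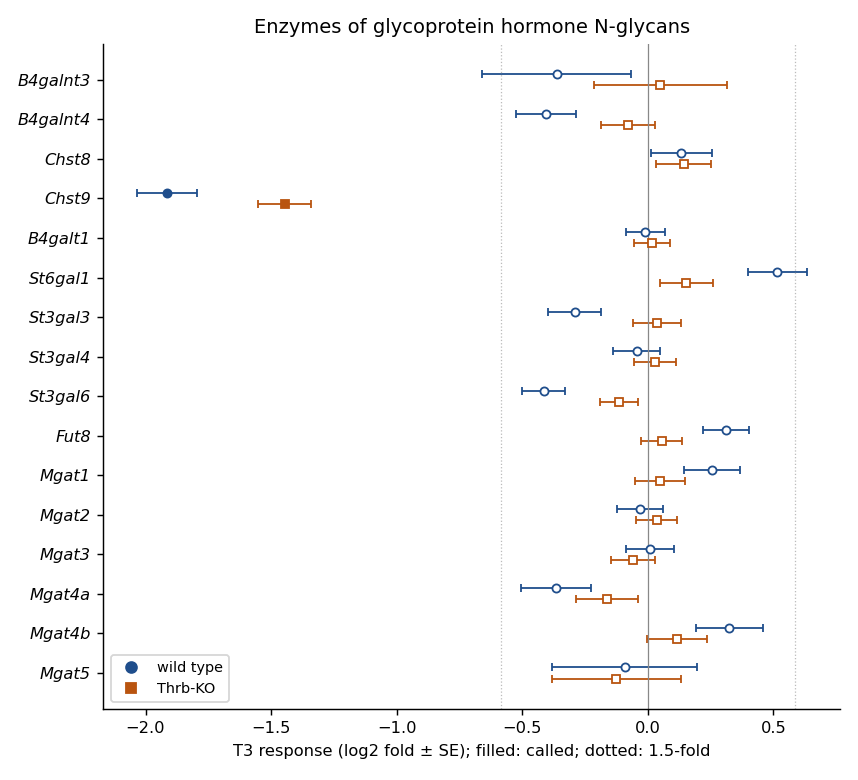
Log2 change with T3 (± SE, limma) of the 16 enzymes of hormone N-glycans in wild type (circles) and Thrb-KO (squares); filled symbols are called and dotted lines mark 1.5-fold. Chst9 alone is called, at -1.92 in wild type and -1.45 in Thrb-KO, and the other 15 lie between -0.42 (St3gal6) and 0.52 (St6gal1).

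Chst8 and Chst9 are both N-acetylgalactosamine 4-sulfotransferases, the enzymes that place terminal sulfate on LH and TSH glycans. Chst9 was at 5.28, 5.95, 5.99 and 5.66 CPM in hypothyroid and 1.10, 0.962, 0.446 and 0.681 CPM in hyperthyroid wild type. In Thrb-KO it was at 7.62, 8.08, 6.86, 7.30 and 8.57 CPM without T3 and 2.01, 2.53, 2.69, 1.89 and 1.86 CPM with T3. Every hyperthyroid library lay below every hypothyroid one, and every Thrb-KO library lay above every wild-type library of the same T3 state. Because 3 hyperthyroid libraries were under 1 CPM, Chst9 entered only the wider fit of 14472 genes above 1 CPM in at least 4 libraries. It exceeded 1 CPM in 15 libraries: every hypothyroid and every hyperthyroid Thrb-KO library, and hyperthyroid wild type replicate 1. A gene that fell still had an easier way into that fit than one that stayed low. In the wider fit Chst9 fell by 1.92 ± 0.12 on the log2 scale in wild type (3.77-fold, adjusted p = 9.08e-10; 10.4% of all genes called) and by 1.45 ± 0.11 in Thrb-KO (2.72-fold, adjusted p = 8.48e-08; 1.33% called). The responses differed by -0.47 ± 0.16 (adjusted p = 0.1; 5.13% called), which was not called, whereas on recovered reads the difference was -0.98 with edgeR (adjusted p = 0.0125) and -0.96 with DESeq2 (adjusted p = 0.000558), both called. With T3, Chst9 was 1.79-fold higher in Thrb-KO than in wild type (log2 0.84 ± 0.11, adjusted p = 3.6e-05; 5.65% called). Without T3 the genotypes differed by 0.37 (adjusted p = 0.0532; 3.54% called). Within the library sets the wild-type change was -1.70 and -2.13. The change in Thrb-KO was -1.44 and -1.45 within the sets, and the genotype difference with T3 was 0.68 and 1.00. The limma values are on the log2(CPM + 1) scale, which understates the change of so low a gene: the wild-type change was -2.76 with edgeR and -2.73 with DESeq2. The thyrotroph markers moved with it (Tshb and Cga above), and their part in the fall was not tested. A pituitary TRβ peak of 13 reads against 0 lay in a Chst9 intron at chr18:15777601-15777900. A T3-regulated ATAC peak (adjusted p = 0.0139) lay in an intron at chr18:15737223-15737413 and did not overlap it. Neither peak held a DR4.

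Chst8 was at 19.3, 18.0, 21.8 and 21.7 CPM in hypothyroid and 23.8, 22.1, 20.4 and 22.6 CPM in hyperthyroid wild type, groups that overlap (log2 0.13 ± 0.12, adjusted p = 0.554). In Thrb-KO it was at 18.8 ± 1.88 CPM without and 21.1 ± 4.22 CPM with T3 (0.14 ± 0.11). The gene (minus strand, chr7:35459487-35597730, 138244 bases long) had 3 pituitary TRβ peaks within 20 kb and none in the ATAC list. Of these, 2 lay in the gene and 1 lay 18737 bases downstream of it, under Gm12781 and Kctd15. One intronic peak, chr7:35537151-35537750 (32 reads against 7), held a DR4 with 10 of 12 bases at chr7:35537402-35537417, reading on the minus strand; 27.8% of the 133 peaks of its width held one. It is shown on the plus strand with 60 bases on either side, as the one DR4 in a peak at the hormone sulfotransferases.

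Chst8 intron: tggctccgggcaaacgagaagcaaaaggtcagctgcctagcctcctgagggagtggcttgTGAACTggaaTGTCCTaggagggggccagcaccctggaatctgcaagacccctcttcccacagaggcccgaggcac

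B4galnt3 and B4galnt4, which supply the N-acetylgalactosamine that Chst8 and Chst9 sulfate, were not called. B4galnt3 was at 29.3, 33.8, 22.3 and 23.9 CPM in hypothyroid and 32.3, 30.2, 10.2 and 18.2 CPM in hyperthyroid wild type, with the lower values in replicates 3 and 4 of both groups (log2 -0.36 ± 0.30, adjusted p = 0.501). B4galnt4 was at 17.3 ± 2.95 and 12.8 ± 1.86 CPM (-0.41 ± 0.12, adjusted p = 0.0232), below the fold limit. The galactosyltransferase B4galt1, which starts the sialylated alternative, was at 57.5 ± 2.90 and 57.3 ± 6.26 CPM in the wild-type groups.

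St6gal1, which adds α2,6-linked sialic acid to galactose, was at 67.5, 69.6, 52.6 and 59.6 CPM in hypothyroid and 104, 97.1, 68.8 and 90.1 CPM in hyperthyroid wild type, groups that overlap through replicate 3 of the latter. The change was 0.52 ± 0.12 (adjusted p = 0.00359), below 1.5-fold with limma but above it with edgeR (0.59), with DESeq2 (0.59) and without hyperthyroid wild type replicate 3 (0.64). In Thrb-KO the change was 0.15 ± 0.11 (adjusted p = 0.988), and the responses were not shown to differ (0.36 ± 0.16, adjusted p = 0.26). The genotype difference with T3 was -0.44, under 1.5-fold. The hyperthyroid Thrb-KO libraries (63.0 to 67.1 CPM) lay below the hyperthyroid wild-type ones, and groups did not overlap for 11.3% of all genes there. St3gal6 was lower with T3 in wild type, at 6.31 ± 0.529 against 4.48 ± 0.360 CPM (-0.42 ± 0.09, adjusted p = 0.00161). It was lower by a like amount in hypothyroid Thrb-KO than in hypothyroid wild type (-0.46 ± 0.08, adjusted p = 0.00124), both under 1.5-fold. St3gal3 and St3gal4 were at 15.8 ± 1.70 against 12.7 ± 1.36 CPM and 6.06 ± 0.583 against 5.84 ± 0.434 CPM in the wild-type groups and did not pass the test.

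The St6gal1 locus (plus strand, chr16:23224813-23360421) had 2 pituitary TRβ and 2 T3-regulated ATAC peaks, all within the gene. The stronger TRβ peak, chr16:23257101-23257400 with 35 reads against 3, spans the end of an untranslated exon and the intron behind it, and overlaps the ATAC peak chr16:23256800-23257325 (adjusted p = 0.00126). The intronic stretch inside both, chr16:23257175-23257325, held a DR4 with 11 of 12 bases at chr16:23257281-23257296, the closest match among the members whose pituitary and ATAC peaks overlap. Of the 1451 pituitary peaks as wide as the whole TRβ peak (300 bases), 20.3% held one. The stretch is given on the plus strand with the fixed bases in capitals.

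St6gal1 intron: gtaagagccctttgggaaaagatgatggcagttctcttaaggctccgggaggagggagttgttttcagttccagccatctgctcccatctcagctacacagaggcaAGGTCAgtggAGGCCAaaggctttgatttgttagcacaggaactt

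The branching enzymes and the core fucosyltransferase stayed under 1.5-fold. Mgat1, which begins every complex N-glycan, was at 44.2 ± 2.76 CPM in hypothyroid and 53.4 ± 9.06 CPM in hyperthyroid wild type (0.26, adjusted p = 0.13). Mgat2 (36.0 ± 4.07 and 35.2 ± 3.83 CPM), Mgat3 (16.4 ± 1.78 and 16.5 ± 1.83), Mgat4b (18.2 ± 2.32 and 23.2 ± 4.67) and Mgat5 (47.5 ± 15.9 and 45.0 ± 16.5) were not called. Mgat5 separated by library set and not by T3, at 57.6 to 64.5 CPM in replicates 1 and 2 and 27.6 to 35.1 CPM in replicates 3 and 4 of the wild-type groups. Mgat4a was at 26.5 ± 3.11 and 20.6 ± 4.53 CPM (-0.37, adjusted p = 0.075). Fut8 was at 28.3 ± 0.704 and 35.6 ± 4.92 CPM (0.31 ± 0.09, adjusted p = 0.0221). The transcript kept for Fut8, 1 of 5 of the gene, is listed by RefSeq as non-coding.

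The 7 members above 1 CPM only in some libraries included, besides Chst9, St8sia5, a sialyltransferase of gangliosides. It was at 4.31, 4.43, 4.59 and 4.71 CPM in hypothyroid and 0.585, 0.742, 1.05 and 0.942 CPM in hyperthyroid wild type, and at 3.83, 5.33, 3.58, 3.88 and 5.44 against 1.01, 1.22, 1.74, 1.26 and 1.26 CPM in Thrb-KO. The groups were apart in both genotypes. The fall was 1.60 ± 0.13 on the log2 scale in wild type (3.02-fold, adjusted p = 2.05e-08) and 1.23 ± 0.11 in Thrb-KO (2.34-fold, adjusted p = 1.41e-06), with the same condition on entry to the fit as for Chst9 and the same movement of the thyrotroph markers beside it. On recovered reads, without the added pseudocount of 1, the wild-type change was larger, -2.40 with edgeR and -2.41 with DESeq2, and that in Thrb-KO was -1.74 with both. Within the library sets the wild-type change was -1.69 and -1.50. The responses were not shown to differ (-0.37 ± 0.17, adjusted p = 0.286). A pituitary TRβ peak of 38 reads against 1 lay in a St8sia5 intron at chr18:77465201-77465500 and overlapped a cortex peak. The gene had 3 cortex TRβ peaks and no T3-regulated ATAC peak within 20 kb. Of the other 5 members, Chst3, Chst7, Fut9, St6gal2 and St6galnac5, none was called in any comparison. St6gal2 was low and variable, at 3.28, 2.51, 0.781 and 0.906 CPM in hypothyroid and 1.33, 2.39, 0.284 and 1.02 CPM in hyperthyroid wild type.

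The earlier and supporting steps of the pathway were read from lists that hold no member. With 3.87% of all genes called higher and 5.59% lower with T3 in wild type, the counts that follow are few in short lists, and their difference from those shares was not tested. Of 10 oligosaccharyltransferase subunits, which move the glycan onto the protein, 3 fell with T3 in wild type and none rose: Tusc3 (116 ± 10.8 to 58.4 ± 7.23 CPM, log2 -0.98 ± 0.10, adjusted p = 7.92e-07), Rpn2 (-0.78 ± 0.16, adjusted p = 0.00117) and Dad1 (-0.61 ± 0.18, adjusted p = 0.0257). The Dad1 groups overlapped: 3 hyperthyroid wild-type libraries were at 113 to 127 CPM, while replicate 3 was at 255 CPM, above the 201 to 253 CPM of hypothyroid wild type. Of 9 trimming enzymes 2 fell: the mannosidase Man1a (47.6 ± 7.44 to 10.1 ± 3.91 CPM, -2.19 ± 0.25, adjusted p = 2.59e-06) and the glucosidase II subunit Prkcsh (-0.70 ± 0.13, adjusted p = 0.000604). Of 11 tested enzymes that make sugar and sulfate donors, 1 rose, Papss2, which makes the sulfate donor used by every Chst enzyme (5.20 ± 1.61 to 10.3 ± 2.32 CPM, 0.89 ± 0.17, adjusted p = 0.000696). Papss1, which makes the same sulfate donor, was more abundant and was not called. It was at 50.2 to 56.3 CPM in hypothyroid and 47.6 to 60.2 CPM in hyperthyroid wild type. Of 8 donor transporters 1 rose, the GDP-fucose carrier Slc35c1 (33.1 ± 2.87 to 52.4 ± 3.94 CPM, 0.65 ± 0.09, adjusted p = 2.18e-05), and of 2 tested neuraminidases none was called. In Thrb-KO, Man1a alone of these genes was called (-1.05 ± 0.22, adjusted p = 0.0125). The responses of Tusc3, Prkcsh and Papss2 differed between genotypes by -0.64, -0.62 and 0.83 (adjusted p = 0.00627, 0.0437 and 0.0349). The difference for Man1a was larger, -1.14 ± 0.33, and did not pass the test (adjusted p = 0.0503). Man1a, Prkcsh and Dad1 were lower in hypothyroid Thrb-KO than in hypothyroid wild type, with log2 differences of -1.02, -0.62 and -0.63, and none of these genes was called between genotypes with T3.

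A pituitary TRβ peak lay within 20 kb of the gene body of 31 of the 61 members that could be placed on mm9. Among the 46 tested members the share was 54.3%, against 41.2% of the 12908 placed genes among those fitted. A cortex TRβ peak lay near 20 members (39.1% of the tested ones, against 34.9% of genes) and a T3-regulated ATAC peak near 9 (7 of the 46 tested ones, against 1001 of the 12908 genes). Peaks were called on merged libraries, so these shares carry no replicate error, long genes collect more peaks, and the differences in share were not tested. The 31 members had 43 pituitary peaks of 9 to 111 reads (median 16), of which 5 overlapped a cortex peak and 5 a T3-regulated ATAC peak. A DR4 was found in 10 of the 43 (23.3%), against 20.9% of all pituitary peaks, in 3 of the 31 cortex peaks near members and in 2 of the 12 ATAC peaks. None of the 3 lists had a peak within 20 kb of 22 members.

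The 9 members near a T3-regulated ATAC peak were Chst10, St8sia2, St6gal1, St6gal2, St6galnac3, Chst9, Mgat1, St3gal5 and St8sia4. At the first 5 a pituitary TRβ peak overlapped the ATAC peak. Of those 5, Chst10 and St8sia2 were called higher with T3 in wild type, St6gal1 was higher and St6galnac3 lower below the fold limit, and St6gal2 was not called. The ATAC peaks of Mgat1 and St8sia4 covered an annotated start. St8sia4, the second polysialyltransferase, was at 3.94 ± 1.47 and 4.12 ± 1.97 CPM in the wild-type groups, and St3gal5 at 45.2 ± 1.24 and 43.0 ± 2.55 CPM. The ATAC list gives no direction, so whether these sites opened or closed with T3 cannot be read from it.

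**Figure D4:**
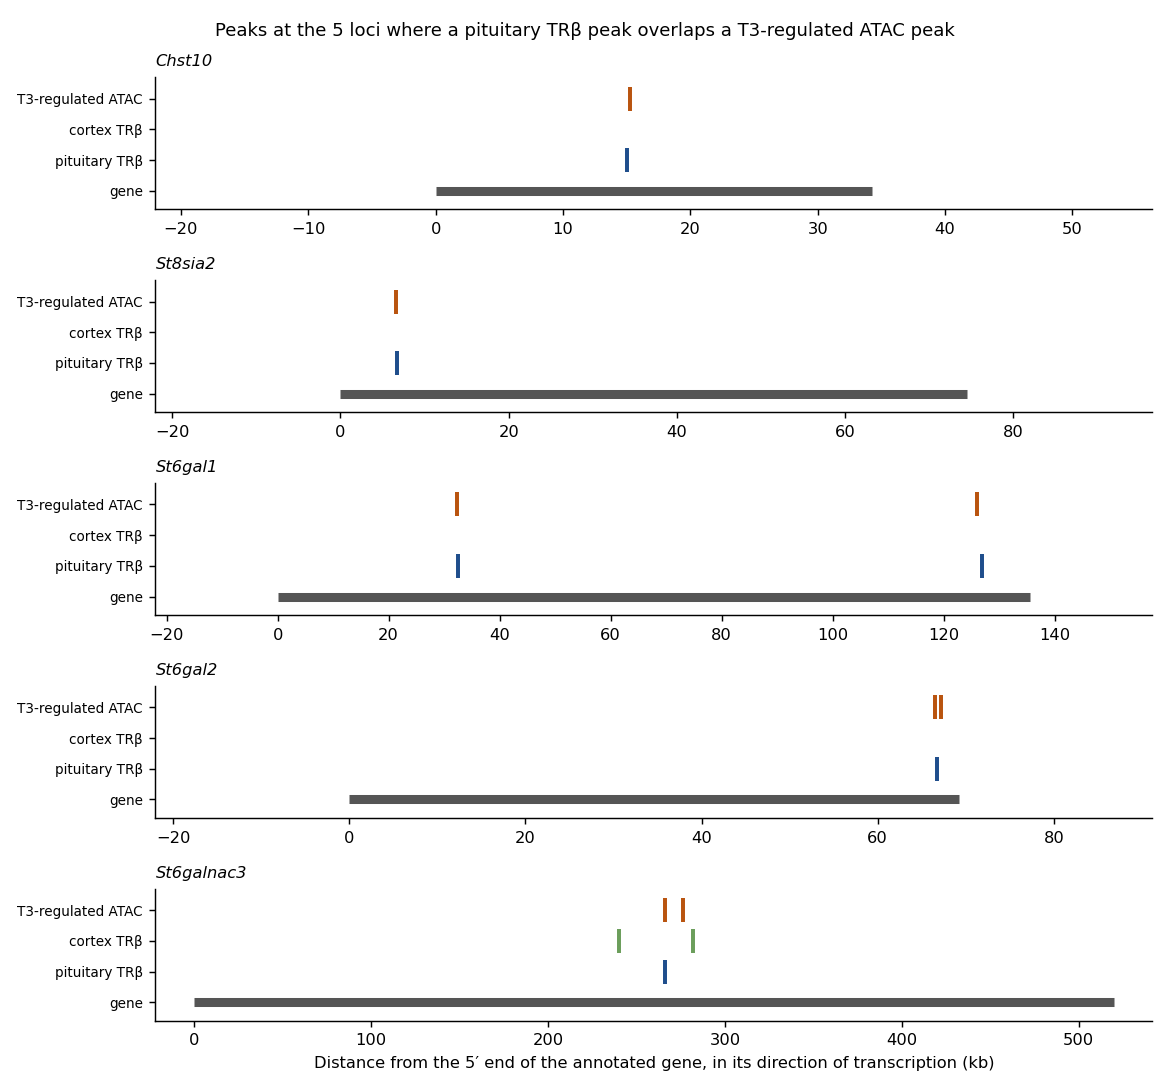
Peaks of the 3 lists along the 5 genes where a pituitary TRβ peak overlaps a T3-regulated ATAC peak; the horizontal axis is the distance in kb from the 5′ end of the annotated gene in its direction of transcription, the grey bar is the gene, and each tick is the centre of a peak within 20 kb of it. The shared sites lie inside the genes, and cortex peaks are drawn at St6galnac3 only.

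St6galnac3, an α2,6-sialyltransferase acting on glycolipids and short O-glycans, was at 6.25, 6.79, 5.33 and 6.31 CPM in hypothyroid and 4.48, 5.19, 3.69 and 4.48 CPM in hyperthyroid wild type. In Thrb-KO it was at 6.66, 7.69, 5.92, 6.80 and 8.67 CPM without and 5.03, 4.93, 5.60, 5.14 and 4.38 CPM with T3. The hyperthyroid libraries lay below the hypothyroid ones in both genotypes. The changes, -0.40 ± 0.11 (adjusted p = 0.0165) and -0.43 ± 0.10 (adjusted p = 0.0269), were under 1.5-fold, and the responses were not shown to differ (0.04 ± 0.15, adjusted p = 0.991). Its ATAC peak at chr3:153121588-153122152, with an adjusted p of 5.21e-19 the lowest near any member, overlapped a TRβ peak of 34 reads against 3 at chr3:153121701-153122100, 266126 bases into the gene from its nearest start. The first 300 bases of their shared stretch, chr3:153121701-153122000, follow on the plus strand. They held no DR4 and 1 exact half-site, in capitals, on the minus strand. Of the 816 pituitary peaks as wide as the whole TRβ peak (400 bases, longer than this stretch), 41.1% held at least 1.

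St6galnac3 intron: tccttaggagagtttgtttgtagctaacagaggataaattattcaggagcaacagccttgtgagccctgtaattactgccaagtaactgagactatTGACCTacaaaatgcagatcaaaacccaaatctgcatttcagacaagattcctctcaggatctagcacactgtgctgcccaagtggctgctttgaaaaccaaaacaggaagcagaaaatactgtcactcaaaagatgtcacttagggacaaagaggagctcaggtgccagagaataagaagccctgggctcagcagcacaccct

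Members with high levels but no called change in the main fit were B4galt6, St8sia3 and the chondroitin sulfotransferase Chst11. B4galt6 was at 155 ± 22.1 CPM in hypothyroid and 114 ± 28.2 in hyperthyroid wild type (-0.46, adjusted p = 0.033). Its change was -0.32 within replicates 1 and 2 and -0.61 within replicates 3 to 5, called in the latter. St8sia3 was at 119 ± 12.8 and 125 ± 18.4 CPM in these groups, and Chst11 at 51.6 ± 13.8 and 55.1 ± 16.2 CPM. The members not named so far stayed uncalled in all 5 comparisons.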

How the data were processed

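RNA was from 18 pituitary libraries of 4 groups. The authors aligned single-end reads of 50 bases to mm9 and deposited CPM per RefSeq transcript; the submitters' processing notes name STAR and the paper names BBMap. They called TRβ peaks with SICER 1.1 (50 bp window) on merged libraries and deposited read counts, a fold (ratio) and the false discovery rate of each peak (a p-value column was not used), and an adjusted p-value per T3-regulated ATAC peak. The steps of the deposited CPM gave whole reads for every value (tolerance 0.01 reads). Columns of other samples numbered 0.

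For each gene the transcript with the highest mean CPM was kept. Genes above 1 CPM in all 18 libraries were fitted with limma 3.58.1 (R 4.3.3) as log2(CPM + 1) in 1 model of 4 groups with trended variance. A call required a two-sided adjusted p (Benjamini-Hochberg) below 0.05 with 1.5-fold or more. edgeR 4.0.16 and DESeq2 1.42.0 on recovered reads, and the settings in the closing section, were alternatives. The fit was tested on simulated data. Gene positions were from GENCODE vM1 and sequences from NCBIM37 (mm9), matched by symbol (61 of 62 members). A replicate is a library of pooled pituitaries. Same-numbered libraries deviated together in all 25 pairs (r 0.130 to 0.815). Their median r of 0.529 was close to that of other numbers in the same library set (0.521). Only 5 of 18 libraries correlated best with their own number, and between the library sets the median r was -0.548. The main fit used neither the replicate number nor the library set, so the difference between the sets stayed in its spread. The number served as a block in an alternative fit only.

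Members and lists were chosen with earlier results of these data known. Named were members called in any comparison, those of the hormone-glycan list, those near a T3-regulated ATAC peak, the 5 with the highest CPM, the hormone subunits, called genes of the pathway lists and Thrb. The 3 peak lists carry no per-library values, and counting error alone limits low peaks. ChIP-seq and treated ChAP-seq samples were not analysed here.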

Additional observations from a re-analysis of the deposited data

Results flagged for a closer look

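The T3 responses of wild type and Thrb-KO differed for Chst10 (0.98 on the log2 scale, adjusted p = 0.00197, limma), Chst1 (0.90, adjusted p = 0.00726) and St8sia2 (0.73, adjusted p = 0.0152), tested as an interaction. In 5 of 120 sets of 4 or 5 libraries examined for the 30 named members, 1 library stood apart from the others of its group, and chance alone gives about 1 in 20. Chst8 was at 28.3 CPM in hyperthyroid Thrb-KO replicate 3, against 17.8 to 20.8 in the others. Mgat2 was at 35.0 CPM in hypothyroid Thrb-KO replicate 5 (others 31.6 to 32.4). Mgat4c was at 7.03 CPM in hypothyroid Thrb-KO replicate 4 (others 9.33 to 9.95). St3gal4 was at 6.93 CPM in hypothyroid wild type replicate 3 (others 5.69 to 5.82). St3gal6 was at 5.02 CPM in hypothyroid Thrb-KO replicate 5 (others 3.99 to 4.27).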

How the results depend on the processing

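The count of members called with T3 in wild type (3) became 5 with genes above 1 CPM in at least 4 libraries and 5 with no filter, through Chst9 and St8sia5; it was 6 within replicates 3 to 5, 6 with edgeR, 6 with DESeq2 and 13 with no fold limit. In Thrb-KO (1) it was 3 with each wider filter, 2 with summed transcripts, which added St8sia5, and 2 with no fold limit. The count for the difference between responses (3) was 1 within replicates 3 to 5. The count between genotypes was 5 with DESeq2 without T3 (3 with limma) and 9 with no fold limit with T3 (5). Leaving out each library gave 2 to 4, 1 to 1, 3 to 3, 2 to 4 and 4 to 5 members in the 5 comparisons. With the replicate number as a block, the hypothyroid genotype count stayed at 3, with Mgat4c in place of Fut2, and no other call changed. Members near a pituitary peak numbered 20 within 20 kb of an annotated start (31 from the gene body). Near a cortex peak they numbered 10 for overlap with the gene body, 38 within 100 kb and 8 at a false discovery rate under 1e-10 (20 within 20 kb of the gene body), and near an ATAC peak 5 within 20 kb of a start (9). No called change of a named member turned its direction under any alternative. Values near 1 CPM (Chst9, St8sia5, St6gal2) rest on few reads, and the other settings tried on the wider filter for such members were chosen after seeing the data.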
